A study of Mus musculus with 7 samples.

Results

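The genes described here encode the primary granule proteins that myeloid progenitors store while they mature toward neutrophils and their relatives, together with a surface marker of the same progenitors. The members are Mpo, Elane, Prtn3, Ctsg, Ms4a3, Prg2 and Srgn. They were chosen by name, and every probe that the array's annotation assigns to 1 of these symbols was taken, which gave 11 of the 25697 probes and 7 of the 16593 genes named on the array. Mpo had 3 probes, Ms4a3 and Srgn had 2 each, and the remaining 4 members had 1.

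The 7 RNA samples were each hybridised to an Illumina mouse bead array, and all were of cells from the OG2 strain of mice, which carries a green fluorescent protein reporter under Pou5f1 regulatory sequence. The groups were induced pluripotent stem cells (iPSCs) derived from lineage-negative marrow (LinNeg_iPSC, lines 1.1.2, 7 and 9, 1 array each), iPSCs made from lineage-positive marrow (LinPos_iPSC, line 1.1, 1 array), iPSCs made from embryonic fibroblasts (MEF_iPSC, 1 array), embryonic stem cells (ESC, 1 array) and the lineage-negative bone marrow cells themselves (LinNeg_BM, 1 array). The labels call LinNeg_BM unipotent and the other 6 samples pluripotent. No age, treatment or agent is given, LinPos_iPSC is 1 line, and the labels do not say whether the 3 LinNeg_iPSC lines came from separate animals, so p-values measure only the spread between these lines.

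A primary granule is the first storage granule that a developing granulocyte makes, at the promyelocyte stage. Its serine proteases are made as inactive forms, trimmed by cathepsin C and packed onto the sulfated chains of the proteoglycan serglycin, and its peroxidase turns hydrogen peroxide and chloride into hypochlorous acid. Transcription of these genes in mouse and human progenitors is known to depend on the factors C/EBP, PU.1, RUNX1 and MYB, and the transcripts are lost again as neutrophils mature. Lineage-negative marrow is what remains after cells with surface markers of mature blood cells are removed, and it holds the progenitors in which these transcripts are made.

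The members lie on chromosomes 11 (Mpo), 10 (Elane, Prtn3 and Srgn), 14 (Ctsg), 19 (Ms4a3) and 2 (Prg2). The windows around the start sites of the peroxidase gene, the 3 protease genes and Srgn are printed because the first 4 encode the enzymes of the granule and Srgn was measured in part of the pluripotent cultures. Each window runs 5′ to 3′ on the gene's own strand, from 250 bases before to 50 bases after the annotated start, and is RefSeq sequence of build GRCm38.p6. Capitals mark letters that match TTNNGNAA (C/EBP), GAGGAA (PU.1), TGTGGT (RUNX) or AACNG (MYB) on either strand, and matches may overlap.
Mpo, chr11:87793534-87793833, plus strand: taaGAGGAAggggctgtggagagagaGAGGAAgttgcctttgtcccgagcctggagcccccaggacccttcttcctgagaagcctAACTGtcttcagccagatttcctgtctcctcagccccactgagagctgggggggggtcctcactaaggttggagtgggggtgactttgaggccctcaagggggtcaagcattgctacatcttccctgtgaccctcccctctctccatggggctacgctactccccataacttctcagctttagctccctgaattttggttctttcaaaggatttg
Elane, chr10:79886062-79886361, plus strand: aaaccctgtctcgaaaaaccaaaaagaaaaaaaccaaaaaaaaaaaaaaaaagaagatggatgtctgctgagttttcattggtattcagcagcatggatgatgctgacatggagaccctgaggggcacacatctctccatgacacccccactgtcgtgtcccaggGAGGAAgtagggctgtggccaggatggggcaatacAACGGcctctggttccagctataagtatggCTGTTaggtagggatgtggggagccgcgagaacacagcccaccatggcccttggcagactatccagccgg
Prtn3, chr10:79879417-79879716, plus strand: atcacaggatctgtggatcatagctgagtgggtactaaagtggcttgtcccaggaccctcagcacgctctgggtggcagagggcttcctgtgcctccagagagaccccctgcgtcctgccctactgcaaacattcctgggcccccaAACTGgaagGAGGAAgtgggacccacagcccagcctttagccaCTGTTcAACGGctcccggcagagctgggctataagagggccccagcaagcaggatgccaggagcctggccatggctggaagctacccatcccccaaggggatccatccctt
Ctsg, chr14:56102525-56102824, minus strand: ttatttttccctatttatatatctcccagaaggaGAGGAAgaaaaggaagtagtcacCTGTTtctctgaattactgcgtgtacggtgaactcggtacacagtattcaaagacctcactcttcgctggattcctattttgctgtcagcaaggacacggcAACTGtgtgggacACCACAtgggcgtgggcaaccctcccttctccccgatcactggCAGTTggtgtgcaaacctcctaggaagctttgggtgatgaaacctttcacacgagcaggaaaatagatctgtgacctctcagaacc
Srgn, chr10:62507708-62508007, minus strand: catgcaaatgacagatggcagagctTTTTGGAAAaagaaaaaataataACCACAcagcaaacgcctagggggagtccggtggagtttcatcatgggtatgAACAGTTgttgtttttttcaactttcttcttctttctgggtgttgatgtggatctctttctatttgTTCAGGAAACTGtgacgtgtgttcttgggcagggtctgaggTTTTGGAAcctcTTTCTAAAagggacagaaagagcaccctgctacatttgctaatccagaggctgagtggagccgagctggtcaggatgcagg
Srgn, another annotated start, chr10:62527396-62527695, minus strand: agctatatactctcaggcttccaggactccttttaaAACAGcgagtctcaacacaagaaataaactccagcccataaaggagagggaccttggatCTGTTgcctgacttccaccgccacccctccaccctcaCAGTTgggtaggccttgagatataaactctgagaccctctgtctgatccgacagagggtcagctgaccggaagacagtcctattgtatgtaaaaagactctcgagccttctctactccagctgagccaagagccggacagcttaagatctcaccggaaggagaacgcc

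RefSeq held 7 such windows for 6 of the members. The PU.1 letters GAGGAA began 85 bases before the Elane start and 95 bases before the Prtn3 start, 2 genes that are adjacent protein-coding genes in the gene table. They also began 247 and 224 bases before the Mpo start and 216 bases before the Ctsg start, and in the Ms4a3 window (chr19:11640802-11641101, minus strand) they lay after the start. In all, 5 of the 7 windows held GAGGAA, against 28.3% of the 32851 windows of the same length in the table. The C/EBP letters TTNNGNAA occurred in 2 of the 7 windows (40.7% of all windows), with 5 matches in the first Srgn window and 2 in the Ms4a3 window. TGTGGT was in 2 of the 7 windows (16.8% of all), 79 bases before the Ctsg start and 202 bases before the first Srgn start. AACNG was in 6 of 7, but 80.3% of all windows hold that short string. TATAAA, which is not capitalised, was in 2 of 7 windows (13.6% of all), those of Ctsg and of the second Srgn start. These matches describe letters in the windows, and no factor binding was measured here.

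Between 10423 and 10904 probes were above background on an array, taken as a detection p-value under 0.01. The detection p-value is the array software's measure of how often negative-control beads are as bright as the probe. Values are background-corrected, quantile-normalized log2 intensities, and the lowest value above background lay between 5.50 and 5.67 on the 7 arrays. The cell labels fitted their markers: of 13 measured leukocyte markers, 3 to 5 were above background on the pluripotent arrays and 13 in LinNeg_BM. Of 18 naive pluripotency markers, 17 or 18 were above background on the pluripotent arrays and 4 in LinNeg_BM. A gene entered the test when a probe was above background on at least 1 array, and all 7 members did. For 5 of the 7 that array was LinNeg_BM alone, so these 5 had to differ from it, and their counts, medians and p-values are given as a description. The same holds for many genes of the lists below. Above background in LinNeg_BM only were 10 of the 11 later granule genes, 8 of 13 leukocyte markers, 8 of 12 myeloid regulators and 7 of 9 eosinophil, mast cell and basophil genes. Above background in pluripotent cultures only were 14 of 18 naive pluripotency markers, 10 of 12 endoderm markers, 6 of 8 fibroblast markers and 5 of 15 proteoglycan genes. LinNeg_BM alone also passed 4 of 10 protease processing and inhibitor genes, 2 of 3 serine protease relatives, 1 of 1 peroxidase relative and 2 of 2 MS4A relatives. The filter fixed the direction of these genes, so the counts and medians of these lists are descriptions as well. It also fixed 1 of 14 granule enzyme and membrane genes, 1 of 10 sorting genes and 1 of 6 endothelial markers.

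**Figure D1:**
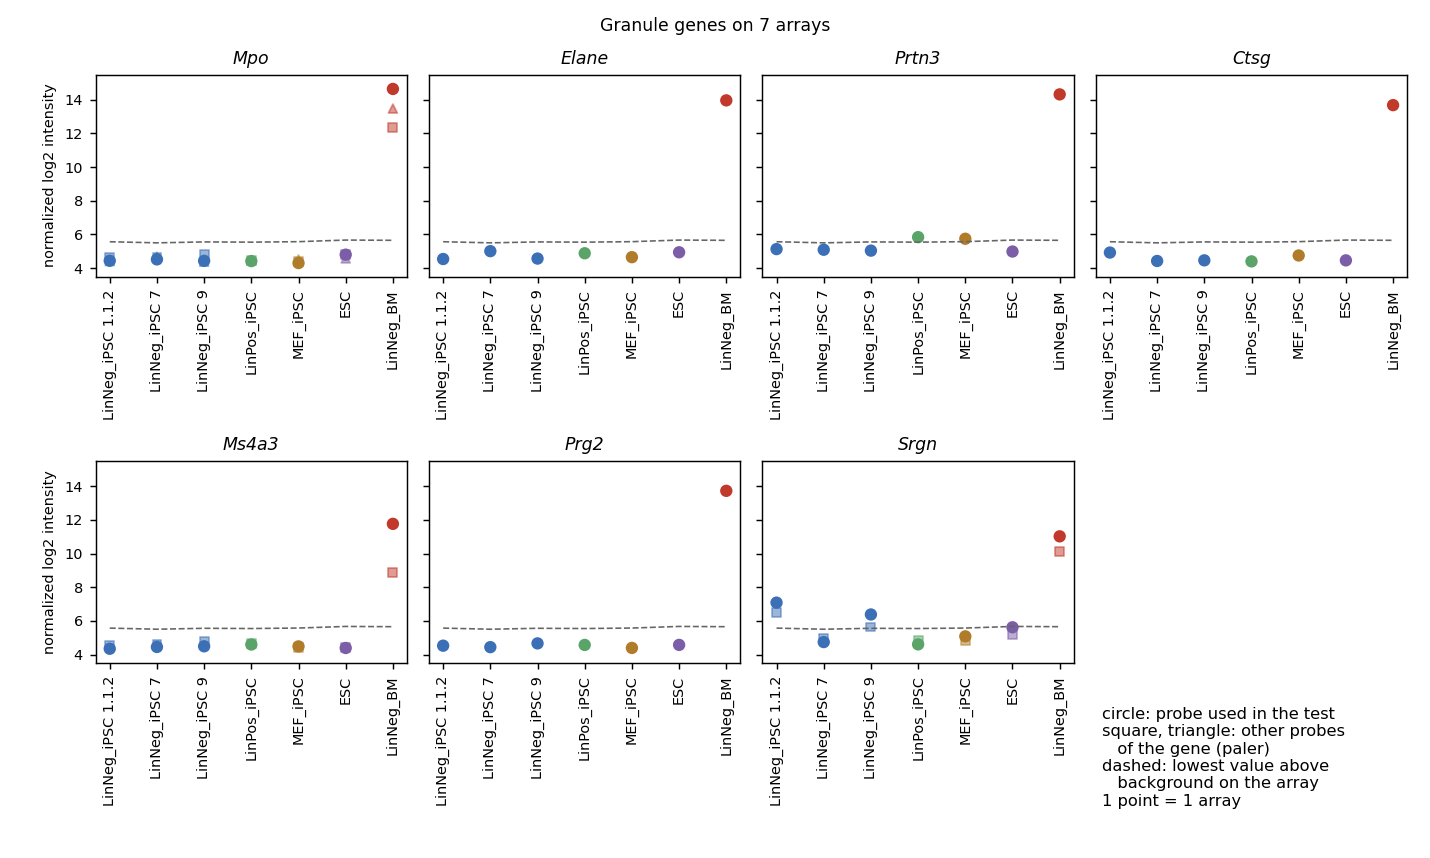
Normalized log2 intensity (y axis) of every probe of the 7 granule genes on each of the 7 arrays (x axis). Circles are the probes used in the test, paler squares and triangles the other probes, and the dashed line the lowest value above background on the array. LinNeg_BM stands far above the line in all 7 panels, and among the pluripotent arrays points rise above it for Prtn3 and Srgn only.

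The granule genes were measured strongly in LinNeg_BM and 5 of the 7 were below background in every pluripotent culture, with Prtn3 and Srgn the exceptions. Against LinNeg_BM all 7 members were lower in LinNeg_iPSC, and the same count held in LinPos_iPSC, MEF_iPSC and ESC, where comparisons all share the single LinNeg_BM array. The share of all 9263 tested genes that was lower at an adjusted p under 0.05 was 29.9% in LinNeg_iPSC (another 29.6% were higher), 25.2% in LinPos_iPSC, 26.6% in MEF_iPSC and 25.8% in ESC. With the arrays scaled to a common median in place of quantile normalization, the median of all genes in LinNeg_iPSC against LinNeg_BM moved to -0.39, and the split to 1989 higher and 3998 lower, against 2743 higher and 2770 lower as above. That split was 1849 higher and 3156 lower in LinPos_iPSC, 1965 higher and 3316 lower in MEF_iPSC and 1995 higher and 3117 lower in ESC, and the members stayed 7 of 7 lower in each. The median difference of the members was -9.18 on the log2 scale in LinNeg_iPSC, and -8.18 when values below background were set to the lowest measurable value, beside a median of 0.02 over all tested genes. In the other groups the median lay between -9.15 and -8.93. In bulk RNA, fewer expressing cells and less RNA per cell cannot be told apart.

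Mpo encodes myeloperoxidase, the heme enzyme that makes hypochlorous acid. Its tested probe had log2 values of 4.44, 4.52 and 4.43 in LinNeg_iPSC lines 1.1.2, 7 and 9, 4.42 in LinPos_iPSC, 4.30 in MEF_iPSC and 4.80 in ESC, against 14.64 in LinNeg_BM. All 6 pluripotent values lay under the detection limit, and LinNeg_BM stood apart from them. In deposited units the probe's intensity was 84.2 to 120.4 on the pluripotent arrays and 30377 in LinNeg_BM, where the brightest probe of the array read 36743. Mpo was at least 549-fold lower in LinNeg_iPSC than in LinNeg_BM, with a fitted difference of -10.18 (SE 0.16) and an adjusted p of 2.40e-05 in limma. It was at least 549-fold lower in LinPos_iPSC, at least 538-fold lower in MEF_iPSC and at least 504-fold lower in ESC. The other probes had 12.38 and 13.48 in LinNeg_BM, and the difference over the 3 probes ranged from -7.68 to -10.18, so its size depended on the probe while its direction did not.

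All 3 serine proteases were bright in LinNeg_BM, and of the 3 only Prtn3 was above background in a pluripotent culture. Elane, neutrophil elastase, had 4.54, 5.01 and 4.57 in LinNeg_iPSC lines 1.1.2, 7 and 9, 4.88 in LinPos_iPSC, 4.65 in MEF_iPSC and 4.94 in ESC, against 13.97 in LinNeg_BM. None of the 6 pluripotent values was above background. The lowest detection p-value among them was 0.0702, in line 7. Elane was at least 343-fold lower in LinNeg_iPSC than in LinNeg_BM (difference -9.26, SE 0.24, limma adjusted p = 3.52e-05), and the bound was 343-fold in LinPos_iPSC, 336-fold in MEF_iPSC and 315-fold in ESC.

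Ctsg encodes cathepsin G, a chymotrypsin-like protease. It had 4.93, 4.43 and 4.46 in LinNeg_iPSC lines 1.1.2, 7 and 9, 4.40 in LinPos_iPSC, 4.75 in MEF_iPSC and 4.46 in ESC, against 13.68 in LinNeg_BM. The pluripotent values were all below background and overlapped between groups. The fall was at least 282-fold in LinNeg_iPSC (difference -9.08, SE 0.25, limma adjusted p = 3.56e-05), at least 282-fold in LinPos_iPSC, at least 276-fold in MEF_iPSC and at least 259-fold in ESC.

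Prtn3 encodes proteinase 3, the autoantigen of some vasculitides. It had 5.13, 5.09 and 5.04 in LinNeg_iPSC lines 1.1.2, 7 and 9, 5.84 in LinPos_iPSC, 5.75 in MEF_iPSC and 4.99 in ESC, against 14.32 in LinNeg_BM. The values in LinPos_iPSC and MEF_iPSC were above background, with detection p-values of 0.00125 and 0.00376, while the other 4 pluripotent arrays had detection p-values between 0.0526 and 0.0727. Prtn3 was 357-fold lower in LinPos_iPSC and 382-fold lower in MEF_iPSC than in LinNeg_BM. In LinNeg_iPSC it was at least 439-fold lower (difference -9.23, SE 0.16, limma adjusted p = 2.40e-05), and in ESC at least 403-fold lower. Its intensity on those 2 arrays, 148 in LinPos_iPSC and 150.4 in MEF_iPSC, was close to the array medians of 123.2 and 127.4, which include all dim probes.

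Ordered by level, Prtn3 ran from LinNeg_BM through LinPos_iPSC, MEF_iPSC, line 1.1.2, line 7 and line 9 to ESC. LinPos_iPSC stood 8.48 below LinNeg_BM. LinPos_iPSC and MEF_iPSC differed by 0.10, MEF_iPSC and line 1.1.2 by 0.61, and the steps among the last 4 arrays, all below background and so without a measured order, were 0.04, 0.05 and 0.05. The SD of Prtn3 between the 3 LinNeg_iPSC lines was 0.05. Since all 3 lines were below background, only a bound can be given: Prtn3 was at least 1.23-fold lower in LinNeg_iPSC than in LinPos_iPSC (limma adjusted p = 0.144) and at least 1.15-fold lower than in MEF_iPSC (limma adjusted p = 0.234). Neither comparison passed the test over 9263 genes.

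Ms4a3 encodes a membrane protein of the MS4A family found on granulocyte and monocyte progenitors, and is no granule content. Its tested probe had 4.34, 4.45 and 4.49 in LinNeg_iPSC lines 1.1.2, 7 and 9, 4.59 in LinPos_iPSC, 4.48 in MEF_iPSC and 4.39 in ESC, against 11.76 in LinNeg_BM. Every pluripotent value was below background. Ms4a3 was at least 74.5-fold lower in LinNeg_iPSC than in LinNeg_BM (difference -7.33, SE 0.17, limma adjusted p = 2.78e-05), at least 74.4-fold lower in LinPos_iPSC, at least 72.9-fold lower in MEF_iPSC and at least 68.3-fold lower in ESC. The other probe read 8.88 in LinNeg_BM and gave a difference of -4.25 for LinNeg_iPSC, the same direction with a smaller size.

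Prg2 encodes the major basic protein of eosinophil granules, which links the set to the eosinophil branch of the myeloid lineage. It had 4.52, 4.44 and 4.66 in LinNeg_iPSC lines 1.1.2, 7 and 9, 4.57 in LinPos_iPSC, 4.39 in MEF_iPSC and 4.57 in ESC, against 13.72 in LinNeg_BM. The pluripotent values were below background and overlapped. Prg2 was at least 289.9-fold lower in LinNeg_iPSC than in LinNeg_BM (difference -9.18, SE 0.18, limma adjusted p = 2.56e-05), at least 289.8-fold lower in LinPos_iPSC, at least 284-fold lower in MEF_iPSC and at least 266-fold lower in ESC.

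**Figure D2:**
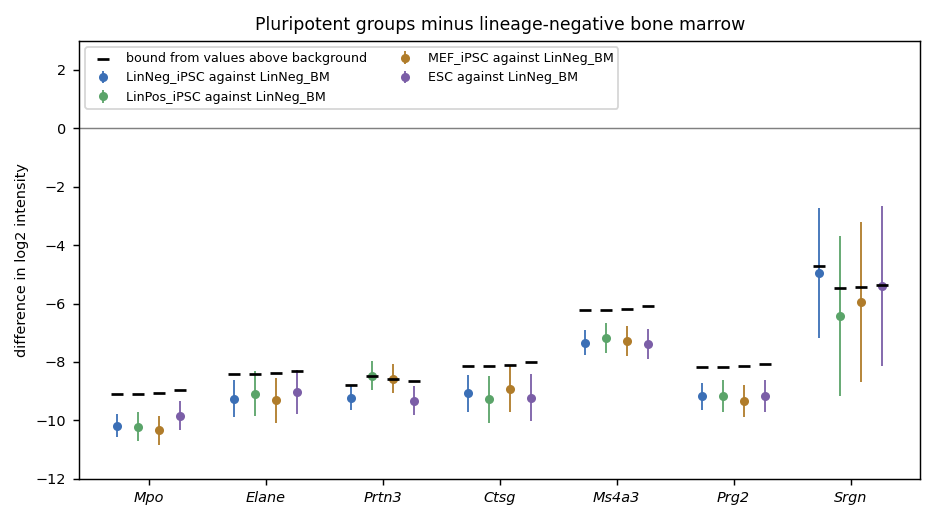
Fitted difference in log2 intensity (y axis) of each pluripotent group minus LinNeg_BM for the 7 granule genes (x axis), with the 95% confidence interval from limma. Black bars are the difference with values below background raised to the lowest value above background. All 28 points lie under 0, near -9 for 4 of the genes, and Srgn has the widest intervals.

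How firmly these genes were undetected can be read from the detection p-values. The 8 probes of Mpo, Elane, Ctsg, Ms4a3 and Prg2 gave 48 readings on the 6 pluripotent arrays, of which 0 had a detection p-value under 0.01 and 0 had one under 0.05. Their intensities lay between 81.1 and 125.3 units. Over all 11 member probes, 6 of 66 readings were under 0.01 and 8 under 0.05, and all of these belonged to Prtn3 and Srgn. A reading below background gives an upper limit for the array and does not show that a transcript was absent.

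**Figure D3:**
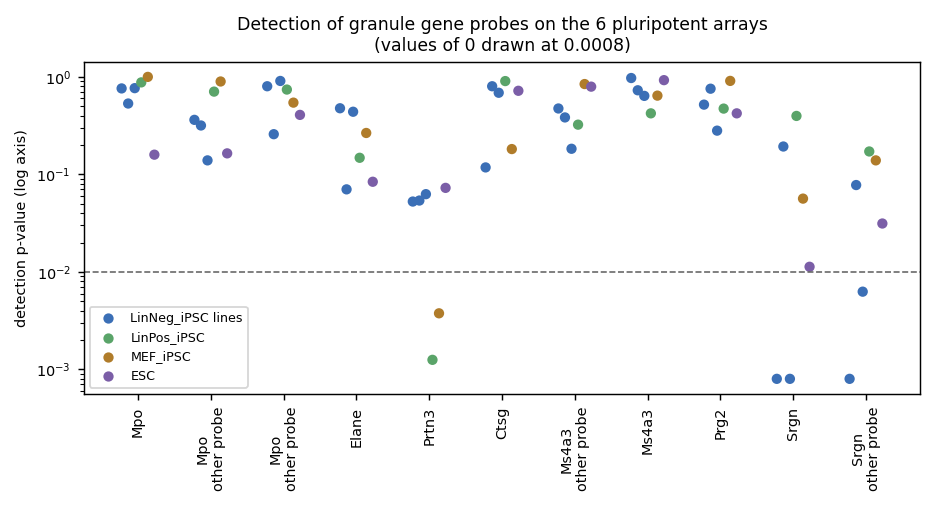
Detection p-value (y axis, log scale, values of 0 drawn at 0.0008) of the 11 member probes (x axis) on the 6 pluripotent arrays, 1 point per array. The dashed line is the threshold of 0.01, and the 6 points under it are those of Prtn3 in LinPos_iPSC and MEF_iPSC and of both Srgn probes in lines 1.1.2 and 9.

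Srgn encodes serglycin, the proteoglycan core of secretory granules, on which Elane depends for storage in mouse neutrophils. It was the member with the widest spread among pluripotent cultures. The tested probe had 7.08, 4.74 and 6.38 in LinNeg_iPSC lines 1.1.2, 7 and 9, 4.60 in LinPos_iPSC, 5.08 in MEF_iPSC and 5.62 in ESC, against 11.02 in LinNeg_BM. Lines 1.1.2 and 9 were above background, with detection p-values of 0 in both. Line 7 (0.193), LinPos_iPSC (0.397), MEF_iPSC (0.0564) and ESC (0.0113) were not. The other probe gave 6.49, 4.97 and 5.64 in lines 1.1.2, 7 and 9, 4.82 in LinPos_iPSC, 4.84 in MEF_iPSC and 5.21 in ESC, against 10.12 in LinNeg_BM, and was above background on the same pluripotent arrays.

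Srgn averaged 6.07 ± 1.20 in LinNeg_iPSC (SD, n = 3), against 11.02 in LinNeg_BM. It was at least 26.0-fold lower in LinNeg_iPSC, where 2 of 3 lines were above background, with a difference of -4.95 (SE 0.88, 95% confidence interval -7.19 to -2.72, limma adjusted p = 0.00625). Without line 1.1.2 the difference was -5.46, and without line 7 it was -4.29. It was at least 44.5-fold lower in LinPos_iPSC (limma adjusted p = 0.00666), at least 43.6-fold lower in MEF_iPSC (0.00798) and at least 40.8-fold lower in ESC (0.0113). The second probe gave a difference of -4.42 between LinNeg_iPSC and LinNeg_BM.

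In order of level, Srgn ran from LinNeg_BM through line 1.1.2, line 9, ESC, MEF_iPSC and line 7 to LinPos_iPSC. The gap below LinNeg_BM was 3.94. The step from line 1.1.2 to line 9 was 0.70, between 2 lines of 1 group. The step from line 9 to ESC was 0.76, but ESC was below background, and the SD of 1.20 between the 3 lines includes line 7, also below background. The last 4 arrays have no measured order.

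None of the 7 members passed the test between LinNeg_iPSC and another pluripotent group. Over all 9263 genes limma called 0% against ESC, 0.0756% against MEF_iPSC and 0.313% against LinPos_iPSC, while 956, 1201 and 1494 genes had an unadjusted p under 0.05 in these 3 comparisons. Among the members that was 0 against ESC and 1, Prtn3, against each of MEF_iPSC and LinPos_iPSC. Srgn was below background in ESC, MEF_iPSC and LinPos_iPSC and above it in 2 of 3 LinNeg_iPSC lines. The LinNeg_iPSC mean thus holds a value below background, that of line 7, and no bound on a fold change is given. The fitted Srgn differences were 0.45 against ESC, 0.99 against MEF_iPSC and 1.46 against LinPos_iPSC, with an SE of 0.88 in each. None of these 3 passed the test. Mpo, Elane, Ctsg, Ms4a3 and Prg2 were below background on both sides of these comparisons and have no fold change there. A p that misses the threshold does not show equal levels.

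Among genes of extraembryonic endoderm, the yolk sac lineage, Sox17 and Sox7 were above background on the same pluripotent arrays as Srgn. The other measured endoderm markers were above background on more of these arrays. As background, serglycin was first cloned from a rat yolk sac tumour, and its source in these cultures was not tested. Sox17, an endoderm transcription factor, had 6.20, 4.73 and 6.21 in lines 1.1.2, 7 and 9, 4.85 in LinPos_iPSC, 4.59 in MEF_iPSC and 4.72 in ESC, against 4.47 in LinNeg_BM. Sox7, its relative, had 6.70, 5.40 and 5.94 in the 3 lines, 5.33 in LinPos_iPSC, 4.53 in MEF_iPSC and 5.16 in ESC, against 4.50 in LinNeg_BM. Both were above background in lines 1.1.2 and 9 and on no other array, as Srgn was among the pluripotent cultures, and both were named after their values were seen. Of the 12 measured endoderm markers, 12 were above background in lines 1.1.2 and 9, 10 in line 7, 10 in LinPos_iPSC, 9 in MEF_iPSC and 9 in ESC, against 2 in LinNeg_BM. Their summed linear level was 9871, 5836 and 8528 in lines 1.1.2, 7 and 9, 5915 in LinPos_iPSC, 4612 in MEF_iPSC and 4488 in ESC, against 585 in LinNeg_BM. Of the defining markers, Gata4, Foxa2, Afp and Ttr had no probe above background on any array. Gata6 was above background on 5 of the 6 pluripotent arrays, all but MEF_iPSC. It had 8.35, 6.22 and 7.69 in lines 1.1.2, 7 and 9, 7.19 in LinPos_iPSC, 5.35 in MEF_iPSC and 7.19 in ESC, against 4.47 in LinNeg_BM.

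By the list's largest differences from LinNeg_BM, Sparc, Col4a1, Dab2 and Lama1 were at least 43.7-, 21.1-, 14.9- and 14.2-fold higher in LinNeg_iPSC. Of the 12 markers 10 rose and 0 fell, with a median of 3.80, beside 29.6% higher and 29.9% lower over all tested genes. The filter fixed the direction of 10 of the 12. Dab2, an endocytic adaptor, had 10.17, 8.54 and 9.95 in lines 1.1.2, 7 and 9, 7.15 in LinPos_iPSC, 6.92 in MEF_iPSC and 8.30 in ESC. Not every marker followed Srgn, as 3 named after their values were seen show. Lama1 had 10.36, 8.50 and 9.58 in lines 1.1.2, 7 and 9 but 10.26 in LinPos_iPSC, Amn had 8.54, 7.45 and 8.25 in the lines and 8.24 in LinPos_iPSC, and Thbd had 7.61, 7.72 and 7.70 in the lines, against 7.72 in LinNeg_BM. The part of endoderm-like cells in the Srgn values was not tested. Serglycin is also made by blood and endothelial cells. Of the 13 measured leukocyte markers 3, 3 and 5 were above background in lines 1.1.2, 7 and 9, 3 in LinPos_iPSC, 4 in MEF_iPSC and 3 in ESC, against 13 in LinNeg_BM. Their summed linear level was 7526, 4966 and 4433 in lines 1.1.2, 7 and 9, 11910 in LinPos_iPSC, 3568 in MEF_iPSC and 5466 in ESC, against 58540 in LinNeg_BM. Chosen after their values were seen, Coro1a, Was and Laptm5 were above background on all 6 pluripotent arrays, while Ptprc, the leukocyte antigen CD45, was below background on all 6 and only 6.05 in LinNeg_BM. The part of blood cells in the Srgn values was not tested. Of 6 measured endothelial markers 5 were above background in line 1.1.2 and 4 on each other pluripotent array, against 6 in LinNeg_BM, and their summed level was 2308 to 2594 in the 3 lines, 2164 in LinPos_iPSC, 2798 in MEF_iPSC and 2824 in ESC, against 2759 in LinNeg_BM. Esam, an endothelial adhesion molecule, was at least 6.35-fold lower in LinNeg_iPSC, with 1 of 3 lines above background, line 1.1.2. Tek was 3.23-fold higher, Eng 2.39-fold lower and Tie1 at least 1.36-fold lower.

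**Figure D4:**
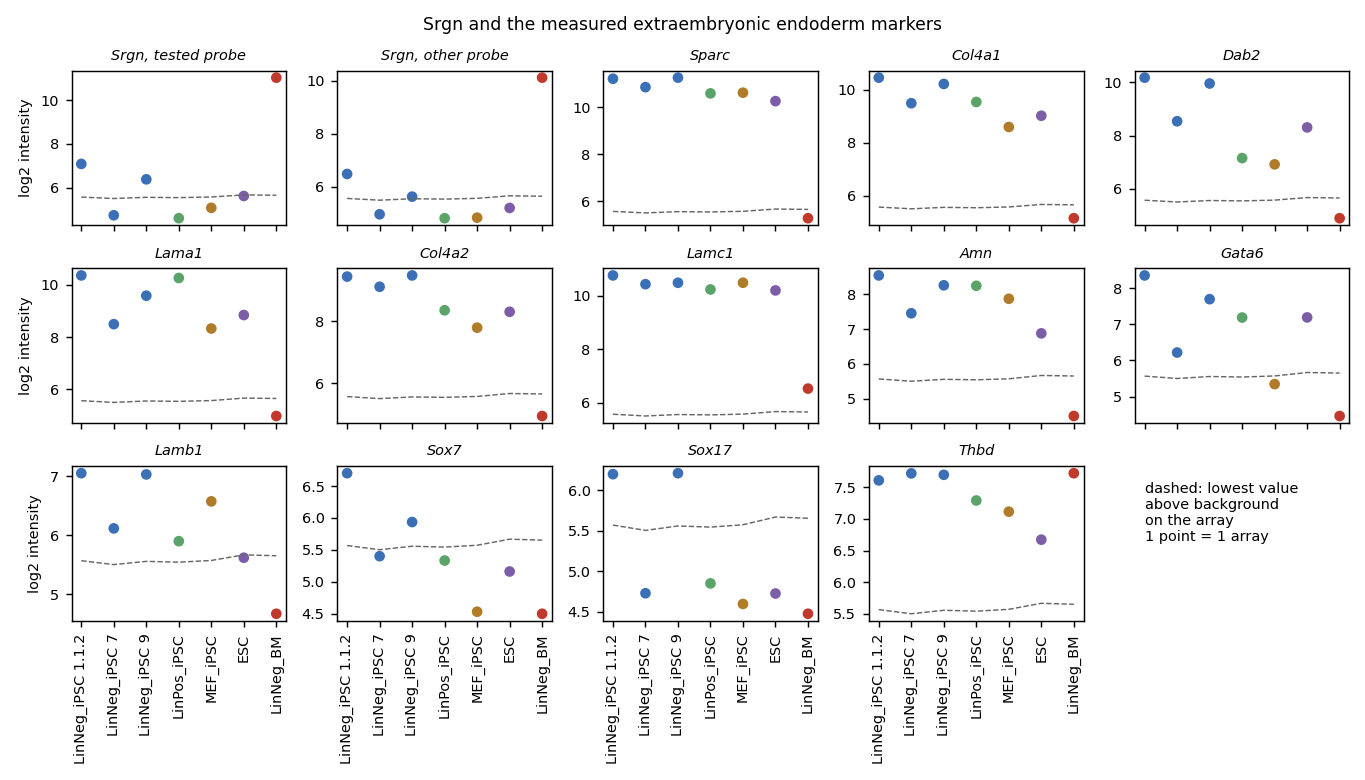
Log2 intensity (y axis, separate scale in each panel) of both Srgn probes and the 12 measured extraembryonic endoderm markers on the 7 arrays (x axis), 1 point per array. The dashed line is the lowest value above background. Srgn, Sox7 and Sox17 exceed it in LinNeg_iPSC lines 1.1.2 and 9 and in no other pluripotent culture, and Srgn alone of these 3 exceeds it in LinNeg_BM.

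Over the 6 pluripotent arrays the 2 Srgn probes had a Pearson r of 0.96. Among 7540 genes above background on at least 3 of these arrays, 26 had r above 0.9 with the tested Srgn probe and 38 had r below -0.9. The most similar were Dag1 (0.99), encoding the laminin receptor dystroglycan, Rpl36a (0.96), encoding a ribosomal protein, Bad (0.96), encoding a cell death regulator, Mme (0.95), encoding neprilysin, and Ctr9 (0.95), encoding a transcription elongation factor. Dag1 spanned 9.32 to 9.76 and Rpl36a 12.94 to 13.10 on these arrays, ranges far narrower than that of Srgn. The least similar were Arfrp1 (-0.97), Rad18 (-0.97) and Sec63 (-0.97). These values describe 6 arrays that share 1 normalization and include 3 lines of 1 origin, with Srgn itself below background on 4. A link between the named genes and Srgn was not tested.

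Most relatives of the proteases and the peroxidase had no probe above background on any array, LinNeg_BM included. Of 13 serine protease relatives on the array 3 were tested, and 2 of the 3 fell in LinNeg_iPSC, beside 29.9% lower over all tested genes. These 2, Epx and the Ms4a3 relatives below were above background in LinNeg_BM only, so the filter fixed their direction. Prss34, a protease of basophils, was at least 279-fold lower in LinNeg_iPSC, against 13.67 in LinNeg_BM, and Mcpt8, a basophil granule protease, at least 48.5-fold lower, against 11.14 in LinNeg_BM. Gzmm, a lymphocyte granzyme, was 0.47 lower and did not pass the test (limma adjusted p = 0.247). Epx, the eosinophil peroxidase, was at least 10.7-fold lower in LinNeg_iPSC, against 8.97 in LinNeg_BM, while Lpo, lactoperoxidase, had no probe above background on any array. Both tested relatives of Ms4a3 fell, Ms4a6d at least 3.06-fold and Ms4a2, a chain of the IgE receptor, at least 1.95-fold.

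Lysosome-like enzymes and membrane proteins of the granule showed a mixed picture. Of 14 tested, 10 fell in LinNeg_iPSC, 0 rose and 4 did not pass, with a median of -1.31. Over all tested genes 29.9% were lower and 29.6% higher. Lyz1 and Lyz2 encode lysozyme, and the sequences of the pair are so similar that their probes may share signal. Lyz1 had 4.81, 6.80 and 4.68 in lines 1.1.2, 7 and 9, against 14.61 in LinNeg_BM, and was above background in line 7 alone of the 3 lines. It was at least 399-fold lower in LinNeg_iPSC, and Lyz2 at least 168-fold lower. Arsb was at least 45.1-fold lower with 2 of 3 lines above background, and Gusb, beta-glucuronidase, was 6.65-fold lower with all 3 lines above background. The general lysosomal genes Cd63, Lamp1 and Gaa, named after their values were seen, were above background on all 7 arrays and did not pass the test.

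Genes that process or restrain the proteases went in both directions, as did all tested genes. Of 10 tested, 6 fell in LinNeg_iPSC, 3 rose and 1 did not pass, beside 29.9% lower and 29.6% higher over all tested genes. Of the 6 that fell, 4 were above background in LinNeg_BM only, Slpi, Stfa1 and Serpinb1a among them. The filter fixed the direction of these 4. Slpi, an inhibitor of elastase and cathepsin G, was at least 253-fold lower. Cst7, Stfa1 and Serpinb1a, inhibitors of cathepsins or neutrophil proteases, were at least 8.02-, 7.17- and 5.67-fold lower, with Cst7 above background in 1 of 3 lines. Chosen after their values were seen, Serpinb6a, Calr and Cstb were 5.61-, 4.74- and 2.08-fold higher in LinNeg_iPSC. Ctsc, the activator of Elane, Prtn3 and Ctsg, was also chosen after its values were seen. It stayed above background on 5 of 6 pluripotent arrays, on which no protease but Prtn3 in LinPos_iPSC was measured, and fell 2.38-fold in LinNeg_iPSC and at least 21.8-fold in MEF_iPSC relative to LinNeg_BM.

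Sorting and secretion genes were mostly still measured. Of 10 tested, 8 or 9 were above background on each pluripotent array and 10 in LinNeg_BM, and 7 fell, 1 rose and 2 did not pass in LinNeg_iPSC, with a median of -0.93 (8 fell and 0 rose with a common median). Vamp8, a vesicle fusion protein, was 16.9-fold lower, Rab27a, a granule docking GTPase, 5.62-fold lower, and Stxbp2, a syntaxin-binding protein, 2.70-fold lower. Unc13d, the priming factor Munc13-4, was at least 7.58-fold lower. Proteoglycan cores and enzymes of chondroitin sulfate synthesis, the class to which serglycin belongs, divided as 7 higher, 5 lower and 3 not passing of 15. Vcan was among the higher and above background in 1 of 3 lines. Beside these and the sorting genes, the shares over all tested genes were 29.6% higher and 29.9% lower. Bgn (biglycan) was 17.4-fold and Sdc4 (a syndecan) 14.05-fold higher in LinNeg_iPSC, Sdc2 at least 3.93-fold higher, and Cd44 12.4-fold lower.

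Regulators of the myeloid lineage fell with the granule genes. Of 12 tested, 11 fell in LinNeg_iPSC, 0 rose and 1 did not pass, with a median of -2.62. Over all tested genes 29.9% were lower and 29.6% higher. The filter fixed the direction of 8 of the 12, which were above background in LinNeg_BM only. Irf8, Cebpe, Csf3r and Gfi1 were at least 47.0-, 18.9-, 16.8- and 15.1-fold lower. They encode, in this order, a monocyte regulator, a C/EBP factor of late granulocytes, the G-CSF receptor and a transcriptional repressor. Spi1, which encodes PU.1, Runx1, Myb and Cebpa were singled out because their motifs were searched, and all 4 were below background on all 6 pluripotent arrays, against 7.79, 7.43, 6.42 and 6.58 in LinNeg_BM. Cebpb, another C/EBP factor, and Cbfb, the RUNX partner, were above background on every array.

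Genes of later granules and of other granulated cells moved in the same direction as the members. All 11 tested later granule genes fell in LinNeg_iPSC, with a median of -7.69. Beside this and the counts below, 29.9% of all tested genes were lower and 29.6% higher. For most genes of each list in this paragraph the filter fixed the direction. S100a8, Retnlg, S100a9 and Lcn2 were at least 423-, 326-, 318- and 194-fold lower, against 14.27, 13.89, 13.85 and 13.14 in LinNeg_BM, so genes of maturing neutrophils were strongly measured in that sample too. All 9 tested eosinophil, mast cell and basophil genes fell, with a median of -4.96. Cpa3 and Ear6 were at least 36.6- and 23.2-fold lower, Gata2 at least 53.8-fold lower with 1 of 3 lines above background, and Hdc, histidine decarboxylase, 43.7-fold lower with all 3 lines measured. The division of the member signal in LinNeg_BM between these cell types was not tested. All 13 measured leukocyte markers fell as well, among them Cd52 (at least 141-fold), Coro1a (97.4-fold), Lsp1 (at least 74.7-fold) and Rac2 (at least 38.9-fold), and the median was -5.22. Fibroblast or feeder markers rose in 5 of 8, with 3 not passing and a median of 1.90, led by Ccn2 (at least 81.1-fold higher) and Pdgfra (at least 4.69-fold higher), with Col1a1 at least 1.89-fold higher. Dcn had 6.27, 10.33 and 6.98 in lines 1.1.2, 7 and 9, against 5.26, below background, in LinNeg_BM. Its fitted difference of 2.60 thus rested mainly on line 7 (SD 2.17 between the lines) and did not pass the test. Naive pluripotency markers rose in 18 of 18, with a median of 5.50, among them Dppa5a (at least 481-fold), Esrrb (at least 205-fold), Pou5f1 (at least 150.4-fold) and Dppa4 (at least 127-fold).

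**Figure D5:**
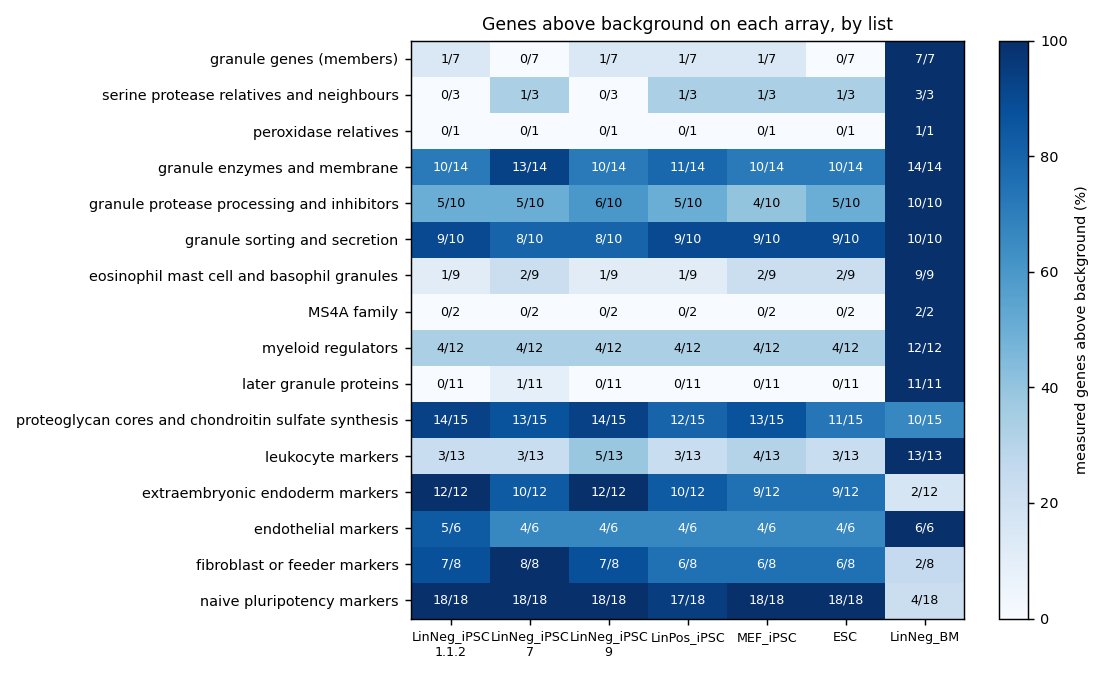
Number of measured genes above background, of those tested, for each gene list (rows) on each array (columns). The colour gives the share in percent. The granule genes are above background in 0 or 1 of 7 on the pluripotent arrays and in 7 of 7 in LinNeg_BM, while sorting and proteoglycan genes are mostly above background on all arrays.

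The nearest genes on the chromosome did not all follow the members. Beside Srgn, Vps26a, a subunit of the retromer, had 11.26 ± 0.06 in LinNeg_iPSC (SD, n = 3), against 11.27 in LinNeg_BM (difference -0.01, limma adjusted p = 0.964), and Kifbp differed by -0.75 (adjusted p = 0.0292). Beside Prtn3, Plppr3 differed by -0.42 (adjusted p = 0.137), with 1 of 3 lines above background. Tspoap1, near Mpo, averaged 6.25 ± 0.29 in LinNeg_iPSC, against 10.32 in LinNeg_BM, a difference of -4.07 (adjusted p = 2.05e-04) with all 3 lines above background. Near Ctsg, Mcpt8 fell as given above, and Gzme, a granzyme, differed by 0.80 without passing (adjusted p = 0.226). Gzme was below background in LinNeg_BM and above it in 1 of 3 lines, so this is no measured difference. Around Ms4a3, Oosp1 and Oosp2, genes named for oocyte secreted proteins, were below background on the pluripotent arrays and had 8.74 and 6.14 in LinNeg_BM, with differences of -4.32 (adjusted p = 6.12e-05) and -1.65 (8.51e-04). Prg3, the homologue of Prg2 near it, was also below background there, against 7.51 in LinNeg_BM (difference -3.02, adjusted p = 1.30e-04). Mcpt8, Oosp1, Oosp2 and Prg3 passed the filter through LinNeg_BM alone, so they had to differ from it. Their differences and p-values are given as a description.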

How the data were processed

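Labelled cRNA was made from 500 ng of total RNA with a 12 h transcription step, per the labels' protocols. The deposited table, called non-normalized, gave the authors' bead intensity and a detection p-value for each probe and array. The sources do not say whether background had been subtracted. A second deposited table held the authors' log2 values (median 3.913 on each array), used as an alternative. The submitters' processing notes name BeadStudio 3.2, lumi and RMA, without settings.

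Intensities were background-corrected through the detection p-values (limma 3.58.1 in R 4.3.3, nec, offset 16), quantile-normalized and taken to log2. Of 25697 probes, 23978 had 1 gene symbol, 0 several and 1719 were not listed, and 23962 were found in the GRCm38.p6 gene table. Some array showed signal above background for 13427 probes, and the one with the highest mean stood for its gene. The 9263 genes were fitted with limma (lmFit, eBayes) in 1 model of 5 groups, with Benjamini-Hochberg adjustment within each of 7 comparisons and a threshold of 0.05. Only the 3 LinNeg_iPSC lines inform the spread (2 residual and 3.157 prior degrees of freedom), and the single arrays are taken to vary as much. Array medians were 103 to 134.9 units, and the number of arrays limits the precision. The fit was also run on simulated data. There every array varied as the 3 LinNeg_iPSC lines did, so the run could not check whether single arrays vary as much.

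Where an array of the dimmer group was below background, a fold change is given as a bound. It is the brighter group's mean over the lowest value above background on the dim arrays, or over the dim probe's own value if higher. No bound is given where the brighter group held a value below background. Differences on the log2 scale are fitted values, also where a group was below background. The tissue field reads bone marrow for all 7 samples, so groups rest on the cell type field. Members and gene lists were chosen with earlier results of these data known. All members were named, with up to 4 genes per list by absolute difference of LinNeg_iPSC from LinNeg_BM, the 5 genes most and 3 least correlated with Srgn, and 2 neighbours on each side of a member. Alternatives changed background, scaling, filter, probe choice, grouping and lines.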

Additional observations from a re-analysis of the deposited data

How the results depend on the processing

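Of 372 recomputed member differences against LinNeg_BM, 371 kept their direction and their side of the threshold. The exception was Srgn in ESC against LinNeg_BM with the authors' log2 values, at -6.02 (limma adjusted p = 0.0645). For LinNeg_iPSC the difference ranged from -10.32 to -7.99 for Mpo, with adjusted p up to 5.10e-04, and from -5.61 to -3.71 for Srgn, with adjusted p up to 0.0407. When genes had to be above background on at least 3 arrays, only Prtn3 and Srgn were left to test, and 2 of these 2 were lower in each of the 4 comparisons with LinNeg_BM. Between pluripotent groups, 64 of 65 recomputed member differences kept direction and call, and the fitted Srgn value for LinNeg_iPSC against ESC was -0.0597 (adjusted p = 0.981) without line 1.1.2; line 7 and ESC were below background there, so this is no measured sign. Counts of all genes past the test moved more. LinNeg_iPSC against MEF_iPSC gave 7 genes, and 97 without background correction (58 higher, 39 lower), 91 with normexp (59 higher, 32 lower), 22 after scaling to a common median (15 higher, 7 lower) and 3 with the authors' values. Leaving out any of the 3 lines gave 1 to 2. LinNeg_iPSC against LinPos_iPSC gave 29 genes (26 higher, 3 lower), and 269 without background correction (144 higher, 125 lower), 216 with normexp (123 higher, 93 lower), 116 with a common median (64 higher, 52 lower), 11 with the authors' values, 51 with the filter on at least 3 arrays (41 higher, 10 lower) and 19 with no filter. Leaving out any of the 3 lines gave 0 to 0. The cause of these shifts was not tested. No member was among the genes called between pluripotent groups under any of these settings. No paired analysis was possible because every group other than LinNeg_iPSC has 1 array, so no pair of groups shares 2 replicate numbers. Signal over background limits what can be said of the members in pluripotent cells, where most readings are only upper limits.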
